A study of Mus musculus with 8 samples.

Results

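The immunoglobulin heavy-chain (IGH) clonotypes of 8 RNA libraries are described here. A clonotype was 1 line of a library's receptor table, that is, 1 assembled receptor sequence with its read count, and a line was taken as IGH when its best-scoring joining segment was 1 of the 4 IGHJ genes. This rule took 3165 of 14428 clonotypes (21.9%). All 3165 also had an IGHV gene as their best variable segment, 3041 had a constant-region hit, 2647 had a D segment placed between V and J, and 2974 were in frame without a stop. Their V genes came from 15 families and 103 genes, and each of these genes was found on the minus strand of chromosome 12 in the GRCm39 annotation.

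The libraries came from mouse in utero transplantation (IUT), in which haematopoietic cells are injected into the fetus. All pups were F1 offspring, 1 week old, of C57BL/6 CD11c-DTR dams, in which the CD11c (Itgax) promoter drives a diphtheria toxin (DT) receptor transgene, and BALB/c males. DC-depleted dams received 5 ng/g DT on embryonic day 13 and DC control dams received saline. On embryonic day 14 the fetuses received 5000000 mononuclear bone marrow cells that matched the dam (mIUT, C57BL/6 cells) or the sire (pIUT, BALB/c cells). Uninjected pups had no IUT and came from dams with or without DT, in proportions not given in the sources used here.

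Cells of several pups were pooled per group, harvested from the whole body and sorted with magnetic beads and by flow cytometry into trafficked maternal cells and recipient cells of the pup, by the MHC class I molecules H2K-b and H2K-d. The paper reports more pups in the uninjected pool than in any IUT pool. Each origin gave 4 libraries, 1 for each of uninjected, DC control mIUT, DC control pIUT and DC-depleted pIUT pups. Donor cells of mIUT carry H2K-b, as cells of the dam do, and donor cells of pIUT carry H2K-d. Whether donor cells entered the sorted fractions of IUT pups was not tested. With 1 pooled library per group there are no replicates, so no p-value is given. The 95% intervals (Wilson) cover counting error only, and reads without molecular identifiers are not independent molecules. Clonotypes of a library that repeat a CDR3 with another V hit are counted apart and may be 1 rearrangement. The number of clonotypes depends on the pups pooled, the number of B cells and the RNA each cell gives, and those cannot be told apart here.

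A heavy chain is assembled in the bone marrow or fetal liver in 2 steps, D to J and then V to DJ, and the junctions form the third complementarity-determining region (CDR3). The enzyme TdT, encoded by Dntt, adds bases that no gene encodes (N nucleotides) at both junctions; it is scarce in fetal and early neonatal B lymphopoiesis, which is also known for frequent use of the V genes nearest the D cluster, in the IGHV5 and IGHV2 families. The first heavy chain of a B cell is IgM, mature naive cells add IgD by splicing of the same transcript, and class switching replaces these with IgG, IgA or IgE. Clonotypes of IGHV11 or IGHV12 joined to IGHJ1 are known from B-1a cells that bind phosphatidylcholine.

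The CDR3s of large clonotypes are printed to show the junctions on which the comparison of the libraries rests. Each is given 5′ to 3′ on the coding strand, from the first codon of the CDR3 to the conserved tryptophan codon, with capitals marking bases that the aligner placed in no V, D or J segment. For some IGHV5 genes the aligner's V segment stopped short of the annotated end of the gene, so a capital directly after V in an IGHV5 clonotype can still be germline. The clonotypes shown from the uninjected libraries all carried such bases; IGHV12-3, not among the 3 largest, is shown because both libraries hold it.
Maternal uninjected, and again recipient uninjected, IGHV1-52 IGHD2-4 IGHJ1: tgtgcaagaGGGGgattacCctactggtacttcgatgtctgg
Recipient uninjected, IGHV1-52 IGHD2-3 IGHJ3: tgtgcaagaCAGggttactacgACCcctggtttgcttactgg
Recipient uninjected, IGHV5-4 IGHD2-8 IGHJ2: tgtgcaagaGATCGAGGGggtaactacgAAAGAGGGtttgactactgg
Both uninjected libraries, IGHV12-3 IGHD2-7 IGHJ1: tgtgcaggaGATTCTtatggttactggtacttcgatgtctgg
Maternal uninjected, IGHV11-2 IGHJ1, no D placed: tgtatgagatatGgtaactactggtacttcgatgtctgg
The clonotypes shown from IUT pups, each among the 3 largest of its library, had 0 to 7 such bases, and those with the most are included.
Maternal DC control mIUT, IGHV9-3 IGHD4-1 IGHJ3: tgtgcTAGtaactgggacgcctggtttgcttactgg
Maternal DC control mIUT, IGHV14-1 IGHD2-3 IGHJ2: tgtaatggttactactttgactactgg
Maternal DC control pIUT, IGHV5-6 IGHD2-4 IGHJ3: tgtgcaagacatagGtactgg
Maternal DC-depleted pIUT, IGHV5-9 IGHD2-4 IGHJ4: tgtgcttacgactatgctatggactactgg
Maternal DC-depleted pIUT, IGHV2-6 IGHD2-5 IGHJ1: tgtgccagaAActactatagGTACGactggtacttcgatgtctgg
Recipient DC control mIUT, IGHV1-62-2 IGHD1-1 IGHJ3: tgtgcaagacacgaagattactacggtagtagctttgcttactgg
Recipient DC control pIUT, IGHV5-4 IGHD2-4 IGHJ3: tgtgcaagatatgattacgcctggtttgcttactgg
Recipient DC-depleted pIUT, IGHV5-2 IGHJ1, no D placed: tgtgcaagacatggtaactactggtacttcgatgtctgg
Recipient DC-depleted pIUT, IGHV5-2 IGHD4-1 IGHJ1: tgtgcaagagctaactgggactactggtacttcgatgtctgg
Recipient DC-depleted pIUT, IGHV5-6 IGHD1-1 IGHJ4: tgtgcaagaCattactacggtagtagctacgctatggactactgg

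The number of IGH clonotypes differed widely between the libraries, and in opposite directions in the 2 origins. Maternal cells gave 2122 IGH clonotypes without IUT, against 12 with DC control mIUT, 7 with DC control pIUT and 22 with DC-depleted pIUT. Recipient cells gave 54, 81, 227 and 640 in the same order. The maternal uninjected library thus held more IGH clonotypes than the other 7 together, and among recipient libraries the DC-depleted pIUT library held the most. IGH made up 47.9% of the 4429 clonotypes of all receptor chains in the maternal uninjected library and 3.99% of the 552 in the maternal DC-depleted pIUT library. Among recipient libraries the IGH share ran from 36.5% of 148 clonotypes in uninjected pups to 4.14% of 5488 in DC control pIUT pups, with 20.9% of 3064 in DC-depleted pIUT pups.

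Reads were spread over these clonotypes in different ways. The IGH reads numbered 48245, 1336, 951 and 146 in the maternal libraries of uninjected, DC control mIUT, DC control pIUT and DC-depleted pIUT pups, and 14349, 360, 1227 and 2458 in the recipient libraries. Reads per clonotype averaged 22.7, 111, 136 and 6.64 in the maternal libraries and 266, 4.44, 5.41 and 3.84 in the recipient libraries. The recipient uninjected library therefore combined few clonotypes with many reads each, and its 10 largest clonotypes held 55.2% of its IGH reads. In the maternal uninjected library the 10 largest held 8.48%, and in the recipient DC-depleted pIUT library 6.71%. In the maternal DC control pIUT library 1 IGHV5-6 clonotype alone held 572 of 951 reads (60.1%).

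Counted in clonotypes, the V family shares of the 2 uninjected libraries lay apart from those of the 6 IUT libraries. Gene counts over all Ighv genes, given below, did not repeat this. IGHV1 (J558), the largest family, which lies mostly in the D-distal part of the locus, gave 60.7% of the IGH clonotypes of maternal uninjected cells (interval 58.6 to 62.8) and 57.4% of those of recipient uninjected cells (44.2 to 69.7). In the recipient IUT libraries its share was 23.5% (15.6 to 33.8) with DC control mIUT, 33.0% (27.2 to 39.4) with DC control pIUT and 34.1% (30.5 to 37.8) with DC-depleted pIUT. These 3 intervals overlap each other and lie below both uninjected intervals. In the maternal IUT libraries the shares were 16.7%, 42.9% and 36.4%, of 12, 7 and 22 clonotypes, and the interval of the 7 clonotypes (15.8 to 74.95) spans the uninjected shares. Weighted by reads, the IGHV1 share of these 7 fell to 7.15% and their IGHV5 and IGHV2 share rose from 14.3% to 60.1%, through the IGHV5-6 clonotype of 572 reads.

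The D-proximal families IGHV5 and IGHV2 showed the reverse order. Together they gave 12.7% of maternal uninjected clonotypes (11.3 to 14.2) and 11.1% of recipient uninjected clonotypes (5.19 to 22.2). The recipient IUT libraries had 43.2% (33.0 to 54.1), 35.2% (29.3 to 41.7) and 35.6% (32.0 to 39.4) in DC control mIUT, DC control pIUT and DC-depleted pIUT pups, each above the uninjected intervals. Maternal IUT cells had 6 of 12, 1 of 7 and 10 of 22 clonotypes from these families. With a clone count of at least 2 the shares overlapped, at 12.8% to 14.6% without IUT and 14.3% to 45.0% with it. IGHV5 was the larger of the pair, with 29 of 81, 59 of 227 and 199 of 640 clonotypes in the recipient IUT libraries and 9 of 22 in maternal DC-depleted pIUT cells. IGHV2 gave 6, 21 and 29 clonotypes in the recipient IUT libraries and none among the 54 of recipient uninjected cells, which allows a share of up to 6.64%.

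**Figure D1:**
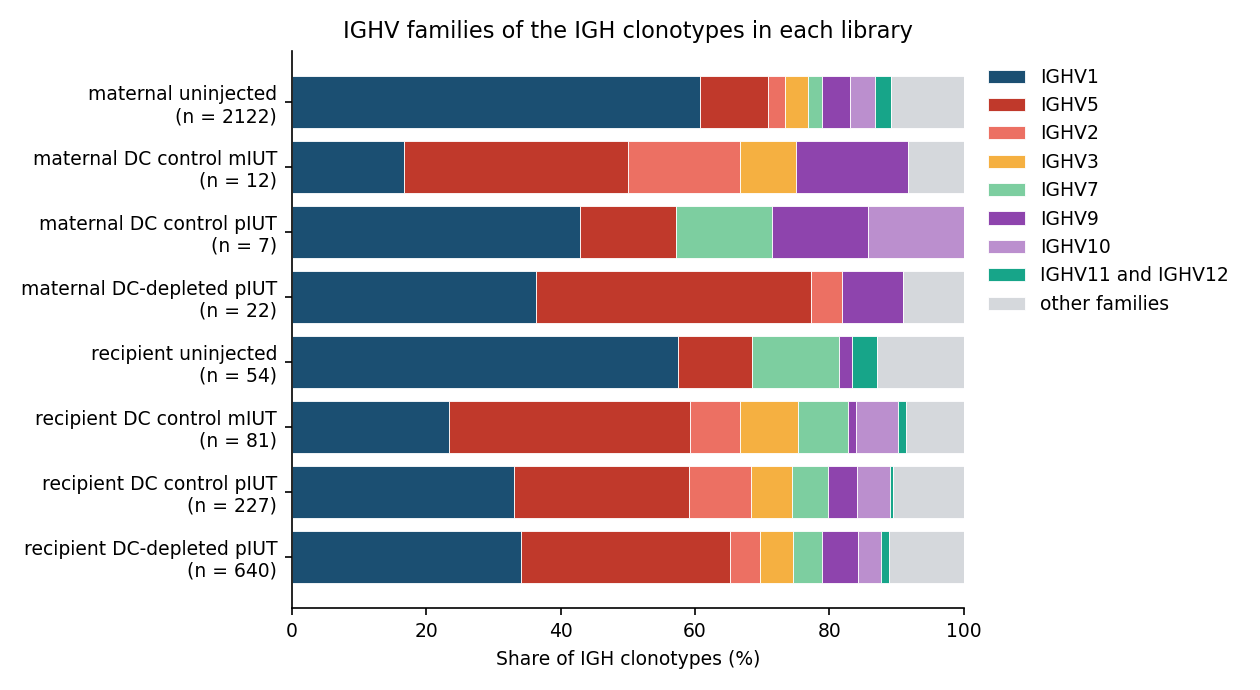
Share of IGH clonotypes (percent) that used each V family, for each of the 8 libraries, with the number of clonotypes given for each library. IGHV1 fills 57.4% and 60.7% of the 2 uninjected bars and 16.7% to 42.9% of the 6 IUT bars, whose IGHV5 part is wider than in the uninjected bars.

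Other families moved less or rested on few clonotypes. IGHV3 gave 3.49% of maternal uninjected clonotypes and 8.64%, 6.17% and 4.84% in the 3 recipient IUT libraries. IGHV7 had its highest share among libraries with at least 20 IGH clonotypes in recipient uninjected cells, at 12.96% of 54. By reads its share there was 7.07%, below the 12.2% of recipient DC control mIUT cells. The family member IGHV7-1, at chr12:113860028-113860566, gave 6 clonotypes in maternal and 2 in recipient uninjected cells, 0, 1 and 0 in the maternal IUT and 3, 6 and 11 in the recipient IUT libraries. IGHV15 was found once, in recipient DC-depleted pIUT cells. The families seen least often thus gave no order of the libraries.

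The position of the V genes along the locus, taken from the same V hits, put the libraries in the same order, with some overlapping intervals. Distances were measured from each V gene to Ighj1, at chr12:113393401-113393453. The median clonotype used a V gene 1359 kb away in maternal uninjected cells and 1305 kb away in recipient uninjected cells. In the recipient IUT libraries the median distance was 502, 858 and 723 kb with DC control mIUT, DC control pIUT and DC-depleted pIUT. In the maternal IUT libraries it was 421, 1094 and 518 kb. V genes within 500 kb of Ighj1 gave 13.5% of maternal uninjected clonotypes (12.1 to 14.997) and 20.4% of recipient uninjected clonotypes (11.8 to 32.9). The same window gave 49.4% (38.8 to 60.05), 38.8% (32.7 to 45.2) and 38.8% (35.1 to 42.6) of clonotypes in the recipient IUT libraries. It gave 6 of 12, 2 of 7 and 10 of 22 clonotypes in the maternal IUT libraries. The interval of the 2 of 7 (8.22 to 64.1) spans both uninjected shares. The recipient DC control pIUT interval overlaps that of recipient uninjected cells. So do the intervals of their median distances, at 565 to 1005 kb and 937 to 1905 kb.

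**Figure D2:**
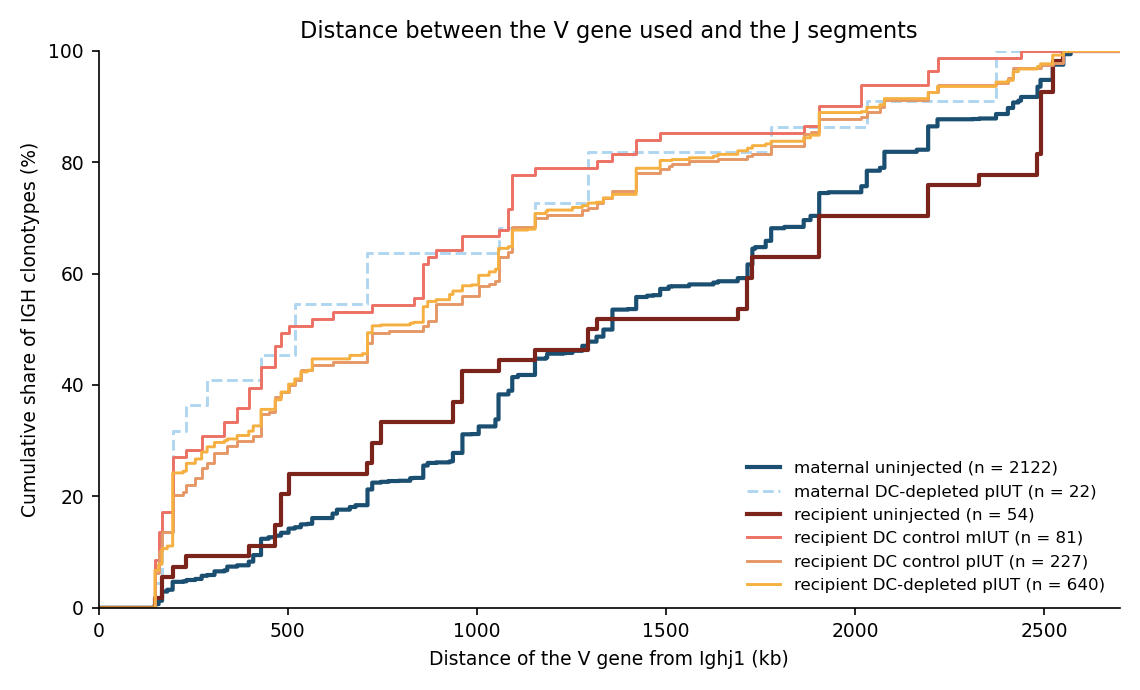
Cumulative share of IGH clonotypes (percent, vertical) whose V gene lies within a given distance of Ighj1 (kb, horizontal). There is 1 line for each library with at least 20 IGH clonotypes, so maternal DC control mIUT and pIUT are not drawn. Within 500 kb the lines stand at 13.5% and 20.4% in the uninjected libraries and between 38.8% and 49.4% in the IUT libraries drawn.

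Single V genes were compared next. IGHV5-6, at chr12:113589126-113589576 and 196 kb from Ighj1, was the most frequent V gene in each of the 3 recipient IUT libraries. It gave 8 of 81 clonotypes (9.88%) with DC control mIUT, 15 of 227 (6.61%) with DC control pIUT and 84 of 640 (13.1%) with DC-depleted pIUT. In the uninjected libraries it gave 30 of 2122 (1.41%) and 1 of 54 (1.85%), with an interval for the 54 (0.328% to 9.77%) that spans the DC control pIUT share. It was also the most frequent in maternal DC-depleted pIUT cells, with 4 of 22 clonotypes. IGHV5-2 (81X), known for its frequent early rearrangement, lies at chr12:113542124-113542610, 149 kb from Ighj1. It gave 7, 14 and 43 clonotypes in the recipient IUT libraries, the last being 6.72%, against 14 of 2122 (0.660%) in maternal uninjected cells. Recipient uninjected cells had 1 of 54, whose interval (0.328% to 9.77%) spans the shares of the recipient IUT libraries.

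Among the D-distal genes, IGHV1-26, at chr12:114751992-114752425, gave 76 clonotypes in maternal uninjected cells, 0 in recipient uninjected cells and 1, 3 and 4 in the recipient IUT libraries. The most frequent V genes of maternal uninjected cells were IGHV1-4 with 95 clonotypes (4.48%), IGHV1-69 with 89 and IGHV1-59 with 87, so that no single gene led by far. By reads these genes held 0.555%, 1.58% and 1.15%, and IGHV11-2 (5.65%), IGHV1-52 (4.61%) and IGHV6-3 (4.46%) held more. IGHV1-59 and IGHV1-4 were also frequent in recipient DC-depleted pIUT cells, with 26 and 24 of 640 clonotypes, whereas IGHV1-69 gave 7. In recipient uninjected cells IGHV1-81 led, with 6 of 54 clonotypes, and 3 IGHV1-52 clonotypes held 17.3% of the IGH reads. The maternal uninjected library used 100 V genes in 326 V-J pairs, and the recipient DC-depleted pIUT library 83 V genes in 218 pairs.

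IGHV11 and IGHV12 took more of the IGH reads in maternal uninjected cells than in any IUT library, and in recipient uninjected cells only IGHV12 was found. Maternal uninjected cells had 19 IGHV11 clonotypes, 0.895% of clonotypes and 5.71% of IGH reads, and 32 IGHV12 clonotypes, 1.51% of clonotypes and 3.07% of reads. Of the 19 IGHV11 clonotypes 17 used IGHJ1, and of the 32 IGHV12 clonotypes 28 did, whereas IGHJ1 was used by 17.1% of all IGH clonotypes of that library. IGHV11-2, at chr12:114011861-114012432, accounted for 17 of the 19, and its largest clonotype, with 709 reads, was the second largest of the library. Recipient uninjected cells had 2 IGHV12-3 clonotypes, of which the IGHJ1 clonotype printed above held 847 of 14349 reads.

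In the IUT libraries these families were rare. No IGHV11 or IGHV12 clonotype was found in the 3 maternal IUT libraries, whose 12, 7 and 22 clonotypes allow shares of up to 24.2%, 35.4% and 14.9%. The recipient DC control mIUT and pIUT libraries had 1 IGHV11-2 clonotype each, joined to IGHJ4 and IGHJ2, with 6 and 10 reads. These reads were 1.67% and 0.815% of the IGH reads of their libraries. Recipient DC-depleted pIUT cells had 6 IGHV12 clonotypes with 24 reads, none of them joined to IGHJ1, and 2 IGHV11 clonotypes, both joined to IGHJ1, with 13 reads.

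J gene use did not follow V gene use. In maternal uninjected cells IGHJ1, IGHJ2, IGHJ3 and IGHJ4 were used by 17.1%, 33.4%, 22.6% and 27.0% of clonotypes. Recipient DC-depleted pIUT cells had 16.9%, 33.8%, 22.3% and 27.0%, each within 1 percentage point of the maternal uninjected value, while their V use differed as above. By reads they were further apart, with IGHJ1 at 23.1% in maternal uninjected and 19.0% in recipient DC-depleted pIUT cells and IGHJ4 at 25.6% and 28.6%. Recipient uninjected cells used IGHJ2 in 55.6% of 54 clonotypes (42.4 to 68.0). Recipient DC control mIUT cells used IGHJ4 in 41.98% of 81 clonotypes (31.8 to 52.8), and maternal DC-depleted pIUT cells in 13 of 22. J use therefore did not divide uninjected from IUT libraries.

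V-J pairing was spread over many pairs in every library with at least 20 IGH clonotypes. The most frequent pairs of maternal uninjected cells were IGHV1-4 with IGHJ2 and IGHV6-3 with IGHJ3, at 32 clonotypes each, and IGHV1-59 with IGHJ2 at 31. From the shares of the 2 genes alone, 16.03 clonotypes of the IGHV6-3 IGHJ3 pair would be given. In recipient DC-depleted pIUT cells the first 3 pairs were all of IGHV5-6, with IGHJ4 (25 clonotypes), IGHJ2 (22) and IGHJ3 (20). In recipient DC control mIUT and pIUT cells IGHV5-2 with IGHJ4 led, at 5 and 7 clonotypes. IGHV2 clonotypes of recipient DC control pIUT cells used IGHJ4 in 12 of 21 cases, against 30.8% over all families of that library. IGHV1 clonotypes of recipient DC-depleted pIUT cells used IGHJ1 in 9.63%, against 16.9% over all families, while in recipient DC control mIUT and pIUT cells they used it in 21.1% and 24%, against 19.8% and 18.5%.

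Among D segments, IGHD1-1 (DFL16.1), a long D gene near the V genes at chr12:113445790-113445812, was placed in 30.9% to 35.0% of clonotypes with a D in 4 of the 5 libraries with at least 40 such clonotypes, counting 32.7% in recipient uninjected cells. In the remaining library of these, recipient DC control pIUT, it reached 45.6% (38.1 to 53.4). IGHD4-1 (DQ52), the short D gene next to the J genes at chr12:113394148-113394158, was placed in 10.97% (9.63 to 12.5) in maternal uninjected and 18.3% (15.03 to 22.1) in recipient DC-depleted pIUT cells, and in 20.4%, 6.06% and 11.3% in recipient uninjected, DC control mIUT and DC control pIUT cells. A D segment could be placed in 88.5% and 90.7% of uninjected and in 70.5% to 81.5% of recipient IUT clonotypes, and in all of the 12, 7 and 22 maternal IUT clonotypes.

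Of the clonotype shares given here, those of the junctions separated the libraries most widely. Among clonotypes with a D, the share without a single inserted base at either junction was 4.37% in maternal uninjected cells (82 of 1878, 3.53 to 5.39) and 4.08% in recipient uninjected cells (2 of 49, 1.13 to 13.7). It was 74.2% (62.6 to 83.3), 70.6% (63.2 to 77.1) and 62.7% (58.2 to 67.0) in recipient DC control mIUT, DC control pIUT and DC-depleted pIUT cells. The maternal IUT libraries, with 7 of 12, 6 of 7 and 14 of 22, had 58.3%, 85.7% and 63.6%, also above both uninjected libraries. These 12, 7 and 22 clonotypes held 7, 5 and 16 distinct CDR3s, so some repeat a CDR3. With 1 line per CDR3, chosen after the data had been seen, the shares were 57.1% to 80% with IUT and 2.78% to 4.10% without. Weighted by reads, the maternal DC control pIUT share fell to 39.9%. The median number of inserted bases was 6 in both uninjected libraries and 0 in all 6 IUT libraries. Clonotypes with at least 4 inserted bases made up 75.6% and 79.6% of the uninjected and 0 to 5.74% of the IUT libraries.

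Both junctions contributed. At the V-D junction 12.3% of maternal and 8.16% of recipient uninjected clonotypes had no inserted base, against 78.8%, 78.1% and 68.7% in the 3 recipient IUT libraries. At the D-J junction the shares were 26.7% and 22.4%, against 90.9%, 89.4% and 90.5%. The V-D shares rest on the aligner's V end, which is short for some IGHV5 genes, so the gap between the V-D and D-J junctions of the recipient IUT libraries holds germline bases too.

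**Figure D3:**
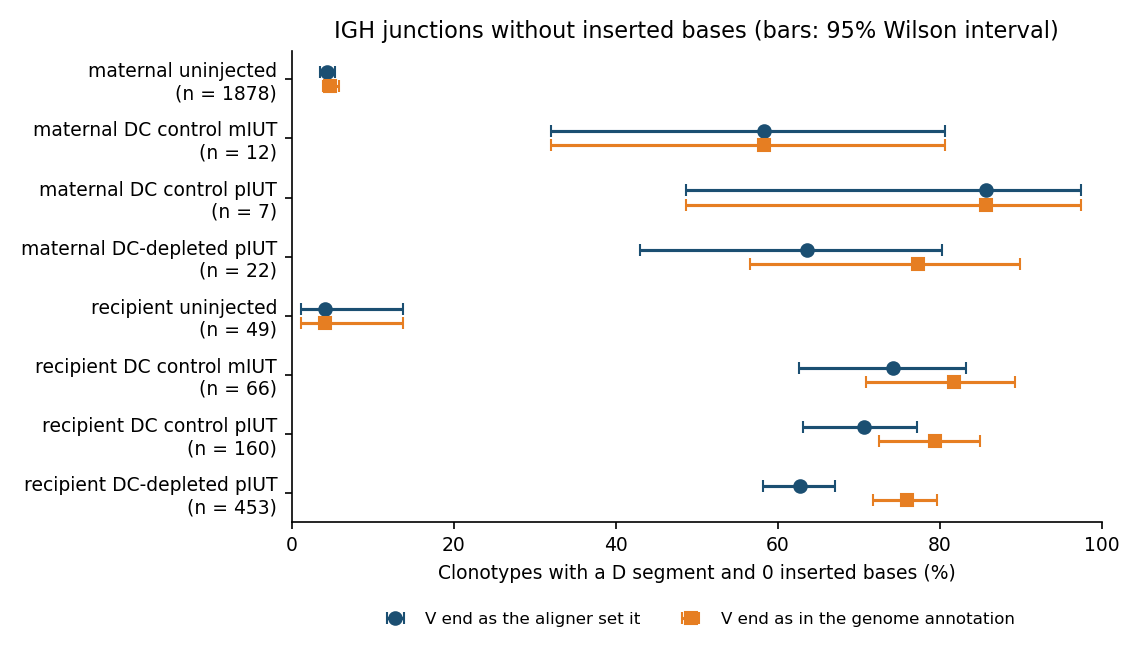
Share of IGH clonotypes with a placed D (percent) that had 0 bases assigned to no V, D or J segment, for each library. Bars mark the Wilson intervals. The share is drawn with the aligner's V end and again with the V end of the genome annotation, chosen after the data had been seen. With the aligner's V end the 6 IUT libraries have 58.3% to 85.7% of their clonotypes at 0 bases, and the 2 uninjected libraries 4.37% and 4.08%.

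Those remaining bases were more frequent in IGHV5, where the V end of the aligner mattered. In recipient DC-depleted pIUT cells 80.7% of IGHV1 clonotypes but 44.1% of IGHV5 and IGHV2 clonotypes had no inserted base. For IGHV5-6 alone it was 14 of 69 clonotypes, and for IGHV5-2 29 of 32. When inserted bases that continued the V gene in the GRCm39 annotation were counted as V, a check chosen after the data had been seen, IGHV5-6 rose to 46 of 69, and the IGHV5 and IGHV2 share to 75.4%. With that count the share of clonotypes without inserted bases was 81.8%, 79.4% and 75.9% in the 3 recipient IUT libraries, and 4.74% and 4.08% in the uninjected libraries.

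Inserted bases and V family were not the same measure. Within IGHV1 the share without inserted bases was 4.65% in maternal uninjected cells and 3.70% (1 of 27) in recipient uninjected cells, against 100%, 96.5% and 80.7% in the recipient IUT libraries and 2 of 2, 3 of 3 and 7 of 8 in the maternal IUT libraries. Within IGHV5 and IGHV2 it was 3.03% in maternal uninjected cells and 53.8%, 36.8% and 44.1% in the recipient IUT libraries, or 4.33% and 73.1%, 61.4% and 75.4% with the V end of the genome annotation. Recipient uninjected cells had 0 of 6 IGHV5 and IGHV2 clonotypes without inserted bases on either count, with an interval up to 39.03%. This overlaps those of all 3 recipient IUT libraries on the first count (35.5 to 71.2, 25.5 to 49.8 and 37.1 to 51.5) and lies below them on the second (53.9 to 86.3, 48.4 to 72.9 and 68.6 to 81.1). The maternal IUT libraries had 3 of 6, 0 of 1 and 3 of 10, or 3 of 6, 0 of 1 and 6 of 10. Of these the DC control mIUT and DC-depleted pIUT intervals lie above that of maternal uninjected cells, and the single DC control pIUT clonotype cannot be placed.

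CDR3s were shorter in the IUT libraries. The median in-frame CDR3 had 42 bases in both uninjected libraries, and 36, 36 and 34.5 bases in recipient DC control mIUT, DC control pIUT and DC-depleted pIUT cells. The maternal IUT libraries had medians of 36, 33 and 39 bases. Weighted by reads, the medians were 21 to 36 bases with IUT and 42 without. The lowest, in maternal DC control pIUT cells, was the length of their IGHV5-6 clonotype of 572 reads. Mean lengths were 41.1 ± 7.69 (SD over clonotypes) and 41.5 ± 5.10 bases in maternal and recipient uninjected cells and 36.5 ± 6.80, 34.8 ± 7.38 and 34.1 ± 7.39 bases in the recipient IUT libraries. CDR3s of at least 42 bases made up 52.8% and 60.8% in the uninjected and 20.1% to 29.1% in the recipient IUT libraries.

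**Figure D4:**
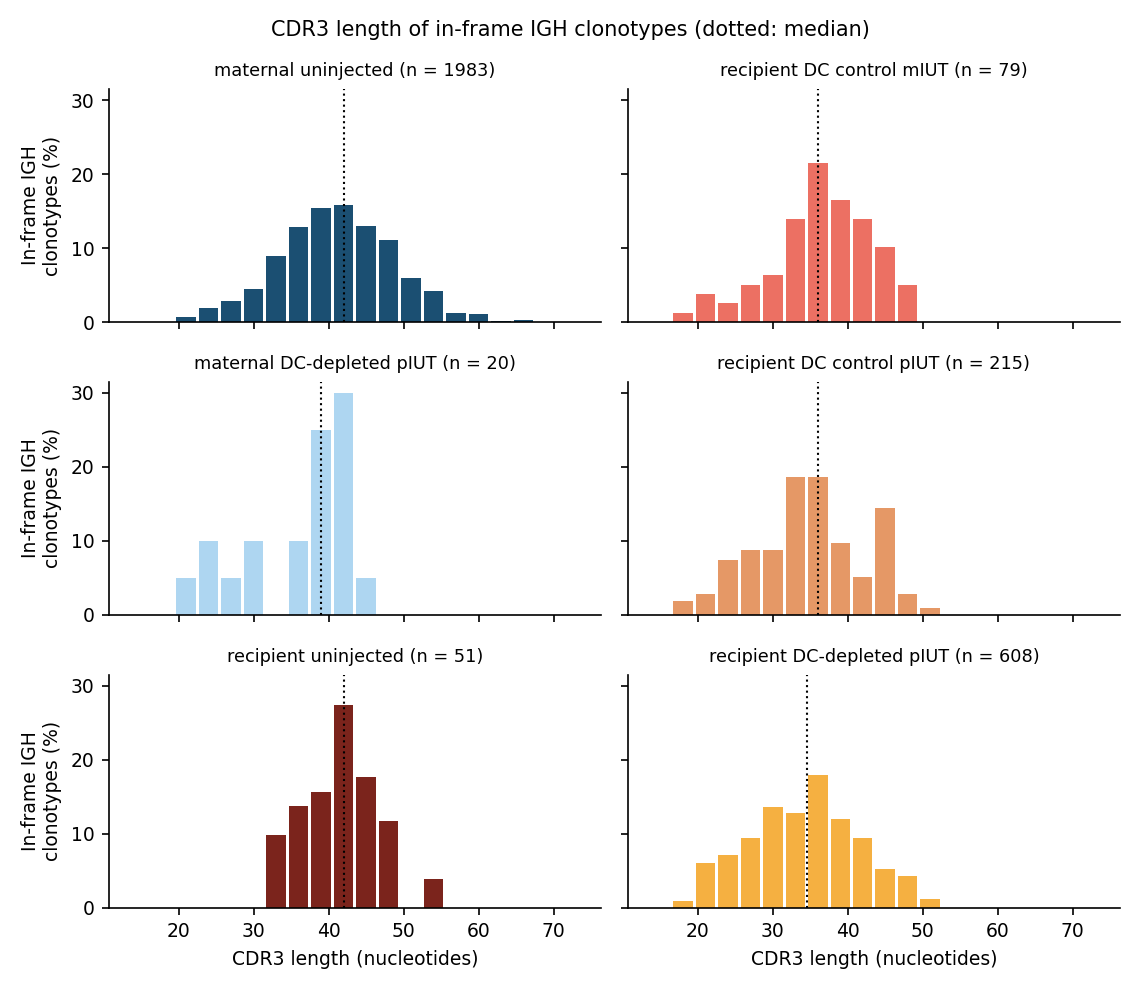
Share of in-frame IGH clonotypes (percent) at each CDR3 length (bases), 1 panel for each library with at least 20 IGH clonotypes. Dotted lines mark the medians, which are 34.5 to 36 bases in the recipient IUT libraries against 42 in both uninjected libraries.

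Reading frame did not separate the libraries. In-frame clonotypes without a stop made up 93.4% (92.3 to 94.4) of maternal uninjected, 94.4% of recipient uninjected and 97.5%, 94.7% and 95% of recipient IUT clonotypes. Maternal uninjected cells had 116 out-of-frame clonotypes (5.47%), which held 1.397% of IGH reads, and 23 in-frame clonotypes with a stop. Recipient DC-depleted pIUT cells had 28 out-of-frame clonotypes, which held 3.25% of IGH reads. Out-of-frame lines can come from the second allele of a B cell, which is usually poorly transcribed, but some were copies of an in-frame CDR3 with 1 base fewer, as among the IGHA lines described with the switched isotypes. In maternal DC control pIUT cells the only out-of-frame clonotype, IGHV7-1 with IGHJ4, had 72 of 951 reads.

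Constant-region hits were mostly IGHM in every library. IGHM made up 80.8% (79.0 to 82.4) of the 2052 hits of maternal uninjected cells and 76.5% (63.2 to 86.0) of the 51 hits of recipient uninjected cells. It made up 98.6%, 96.3% and 97.9% in recipient DC control mIUT, DC control pIUT and DC-depleted pIUT cells, and 12 of 12, 7 of 7 and 19 of 21 in the maternal IUT libraries. IGHD accounted for most of the difference, with 381 clonotypes (18.6%) in maternal uninjected and 10 (19.6%) in recipient uninjected cells, against 1, 8 (3.69%) and 10 (1.64%) in the recipient IUT libraries. The maternal IUT libraries had 0 of 12, 0 of 7 and 2 of 21, and the intervals of all 3 reach the uninjected shares. A clonotype takes the constant gene its reads reach, so a cell with both IgM and IgD transcripts can appear as either.

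Switched isotypes were few. IGHA was hit by 9 clonotypes of maternal uninjected and 3 of recipient DC-depleted pIUT cells, IGHG2B by 3 of maternal and 2 of recipient uninjected cells, and IGHG2C by 1 of maternal uninjected cells. No other library had a switched clonotype, which allows a share of up to 5.07% of the 72 constant-region hits in recipient DC control mIUT and 1.74% of the 217 in DC control pIUT cells. The largest IGHA clonotype of maternal uninjected cells, chosen after its values were seen, had 198 reads, a CDR3 of 66 bases and 20 inserted bases; it is shown for its long junctions.
Maternal uninjected IGHA, IGHV1-62-3 IGHD1-1 IGHJ3: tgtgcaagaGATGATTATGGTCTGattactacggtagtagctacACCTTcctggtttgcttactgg
Some of these lines repeated the junction of a larger line with another V hit or with 1 base fewer. The 3 IGHA lines of recipient DC-depleted pIUT cells, with 8, 1 and 1 reads, were 1 CDR3 of 42 bases under 2 V genes and a copy of it with 41 bases. The 2 IGHG2B lines of recipient uninjected cells, with 287 and 3 reads, held the same CDR3. The number of switched lines is therefore larger than the number of switched rearrangements.

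Differences from the aligner's V segments also varied between libraries, and strain, mutation and sequencing error cannot be told apart in them. Recipient cells of the F1 pups carry a C57BL/6 and a BALB/c locus, whereas maternal cells of the C57BL/6 dams carry only the former. Donor cells of either strain in the sorted fractions were not tested for. The strain of the aligner's segments is not given in the sources used here. In maternal uninjected cells 77.1% of clonotypes had none, with 0.643 per 100 aligned bases. In the other 7 libraries 36.4% to 64.4% had none, with 1.13 to 2.36 per 100 bases. The median V alignment covered 229.5 bases in maternal uninjected and 364 in recipient uninjected cells, but 109, 117 and 88 in the recipient IUT libraries, so that a difference had less sequence in which to be seen there. Its part in the comparison was not tested.

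Few CDR3 sequences occurred in more than 1 library. Of 2495 distinct CDR3s 42 did, all of them in frame, and 1 was found in 3 libraries. The recipient DC control pIUT and DC-depleted pIUT libraries shared 19, which is 10.3% of the first and 3.55% of the second. The recipient DC control mIUT and DC-depleted pIUT libraries shared 9, which is 13.04% and 1.68%. Maternal uninjected cells, with 1683 distinct CDR3s, shared 6 with recipient DC-depleted pIUT cells and 2 with recipient uninjected cells, 1.12% and 5.13% of theirs. They shared none with the maternal IUT libraries, which held only 7, 5 and 16 distinct CDR3s. Within the 3 recipient IUT libraries, CDR3s found in at least 2 of them had no inserted base in 57.9% of those with a D (36.3 to 76.9), and those found in 1 in 65.6% (61.4 to 69.5), with a median length of 36 bases in both. Shared and unshared CDR3s of these libraries thus had overlapping shares.

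The CDR3 found in 3 libraries is shown because it has no inserted base in its recipient IGHV1-26 form, although its reads were few.
IGHV1-26 IGHD2-8 IGHJ4, recipient DC control pIUT: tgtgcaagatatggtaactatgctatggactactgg
It had 8 reads there, 1 read with each of IGHV4-1 and IGHV5-17 in recipient DC-depleted pIUT cells, and 41 reads with IGHV7-3 in maternal uninjected cells. The same CDR3 was thus listed with 4 different V genes of 4 families. Whether these lines were separate rearrangements was not tested. The CDR3 of 206 reads in maternal DC control mIUT cells with IGHV5-2, shown next, also occurred in recipient DC-depleted pIUT cells with IGHV5-4, at 5 reads.
IGHV5-2 IGHD2-4 IGHJ4, maternal DC control mIUT: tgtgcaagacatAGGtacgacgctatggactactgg

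The 2 CDR3s shared by the uninjected libraries were picked out after their values were seen, and both had inserted bases. The IGHV1-52 IGHD2-4 IGHJ1 CDR3 had 1033 reads in maternal cells, where its V alignment held 0 differences, and 982 reads in recipient cells, where it held 15. The IGHV12-3 IGHD2-7 IGHJ1 CDR3 had 49 reads in maternal and 847 reads in recipient cells, with 0 differences in both. The IGHV1-52 clonotype was the largest of the maternal and the second largest of the recipient uninjected library. Whether the 2 sorted fractions shared cells or RNA was not tested, so neither CDR3, nor the 847 reads of IGHV12-3 in recipient cells, can be assigned to 1 origin from these files.

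B-cell genes in the gene count tables of the same libraries followed the IGH reads in part. Normalised expression of Cd79a, a signalling chain of the B-cell receptor, was 2476, 107, 8.72 and 9.48 CPM (estimated counts scaled to the library total and TMM factors) in maternal uninjected, DC control mIUT, DC control pIUT and DC-depleted pIUT cells. In recipient cells it was 539, 17.7, 49.0 and 56.9 CPM. Ms4a1 (CD20), a marker of mature B cells, stood at 1230 and 236 CPM in maternal and recipient uninjected cells, 17.96, 61.5 and 35.5 CPM in the recipient IUT libraries and at most 4.603 CPM in the maternal IUT libraries. Ebf1, an early B-lineage transcription factor, went the other way in recipient cells, with 0.10 CPM in uninjected and 1.08, 0.95 and 6.66 CPM in IUT cells, and stood at 44.4 CPM in maternal uninjected and 15.3, 20.5 and 0.70 CPM in maternal IUT cells. Cd79a and Ms4a1 were thus highest in the uninjected libraries, recipient cells included, although recipient uninjected cells gave fewer IGH clonotypes than the recipient IUT cells. Ebf1 was lowest in recipient uninjected cells.

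Ighd was at 1032 and 338 CPM in maternal and recipient uninjected cells and at most 7.55 CPM in the IUT libraries. Igll1 (lambda5), part of the surrogate light chain of precursor B cells, had 0 counts in both uninjected libraries. It had 2480, 329 and 117 counts in the maternal and 43, 17 and 1917 counts in the recipient DC control mIUT, DC control pIUT and DC-depleted pIUT libraries. Rag1, which cuts the receptor loci in B and T precursors, had 0 counts in both uninjected libraries, 13, 218 and 108 in the maternal IUT and 508, 2166 and 431 in the recipient IUT libraries. Its partner Rag2 also had 0 counts in both uninjected libraries and in maternal DC control pIUT cells, 244 and 86 counts in the other maternal IUT libraries, and 156, 1328 and 547 in the recipient IUT libraries. Igll1 and Rag1 were therefore detected in all 6 IUT libraries and in neither uninjected library. Of Lig4, Dclre1c, Xrcc4 and Prkdc, which encode repair factors used by all cells, all but Xrcc4 were also at or near 0 in some libraries. Lig4 had 0 counts in recipient uninjected and maternal DC control mIUT cells, Dclre1c 3 and 0 counts in the same libraries, and Prkdc 0 counts in maternal DC control mIUT and pIUT cells, whereas Xrcc4 had 268 to 1190 counts in all 8 libraries. A count of 0 for Igll1 or Rag1 can therefore not be read as absence of its transcript. The 7 recombination genes summed to 33.6, 37.4, 30.5 and 33.3 CPM in the maternal and 22.6, 76.996, 227 and 46.6 CPM in the recipient libraries.

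Dntt, which encodes TdT and is also made by T-cell precursors, did not follow the inserted bases over all libraries. It was at 6.53 CPM in maternal uninjected and 0.23 CPM in recipient uninjected cells, whose clonotypes had a median of 6 inserted bases each. It reached 3.49, 100 and 8.26 CPM in the recipient IUT libraries, whose median was 0. The maternal IUT libraries, also with a median of 0, had 0, 0 and 8.36 CPM, so that the Dntt value was below that of maternal uninjected cells in 2 of these 3. Prkdc had 0 counts in the same 2 libraries, so a count of 0 for Dntt cannot be read as absence of its transcript. Summed T-cell markers stood at 554, 1758 and 422 CPM in the recipient IUT libraries, 407, 86.8 and 223 CPM in the maternal IUT libraries, 1501 CPM in maternal uninjected cells and 423 CPM in recipient uninjected cells, and their part in the Dntt level was not tested. Igha and Jchain, the IgA constant gene and the joining chain of secreted polymers, had 1202 and 991 counts in maternal uninjected and 174 and 142 counts in recipient DC-depleted pIUT cells. These were the 2 libraries with IGHA clonotypes, while recipient DC control pIUT cells had 46 and 21 counts and no IGHA clonotype.

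The cell mixture also differed between libraries. Summed B-cell genes ran from 6665 CPM in maternal uninjected to 31.0 CPM in maternal DC-depleted pIUT cells. Pax5, the defining transcription factor of B cells, had 161 counts in maternal uninjected cells, 10 in recipient DC-depleted pIUT cells, 1 in recipient uninjected cells and 0 in the other 5 libraries. Summed erythroid markers ranged from 134 CPM in recipient DC control mIUT cells to 130320 CPM in maternal DC-depleted pIUT cells, and summed granulocyte markers from 1227 to 141656 CPM. The part of this mixture in the IGH measures was not tested.

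**Figure D5:**
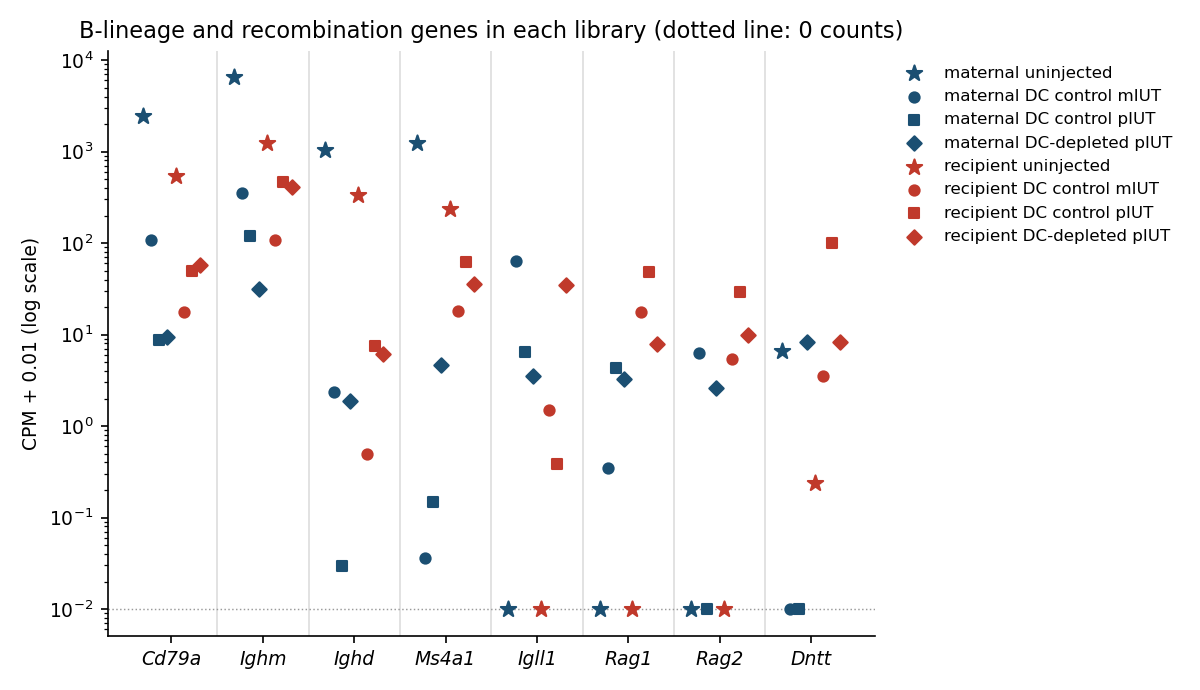
Expression of B-cell and recombination genes (CPM, logarithmic axis) in the 8 libraries. Ighd is higher in both uninjected libraries, at 1032 and 338 CPM, than in the 6 IUT libraries, whereas Igll1 and Rag1 have 0 counts in the uninjected libraries.

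V family shares from the gene count tables depended on which V genes were counted, and over all Ighv genes they did not repeat the order seen in clonotypes. Among all counts on Ighv genes, Ighv1 genes held 54.6% and 54.9% in maternal and recipient uninjected cells, 77.8%, 45.6% and 48.4% in the recipient IUT libraries and 57.0%, 11.4% and 69.2% in the maternal IUT libraries. Ighv5 and Ighv2 genes held 13.6% and 23.5%, then 8.79%, 33.3% and 29.6%, and 22.6%, 49.3% and 17.5%, in the same order. Over all Ighv genes the Ighv1 share of 3 of the 6 IUT libraries thus lay above both uninjected values. Over genes annotated as V genes and not as pseudogenes it did so in 2 of the 6, at 68.7% in maternal DC-depleted pIUT and 67.6% in recipient DC control mIUT cells, against 54.4% and 54.9%. Over the V genes that had a clonotype in the same library, a choice that builds the clonotype result into the comparison, it was 54.3% and 54.8% without IUT and 0 to 42.2% with IUT.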

How the data were processed

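Total RNA of sorted cells, pooled over pups, was sequenced in 8 libraries. Per the labels and methods, the authors assembled receptors from random RNA reads with MiXCR (version not given in the sources used here) against its built-in mouse segments; the deposited counts are reads per clonotype. The deposited gene tables hold estimated counts from salmon in an nf-core pipeline on GRCm39 with GENCODE annotation, although the methods also name featureCounts.

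Each clonotype took its best V, D, J and constant hit. Every column was used. Inserted bases are those between aligned V, D and J segments. V genes were placed in GENCODE vM39 (97.99% of 52784 gene identifiers matched). Estimated counts were rounded and scaled to CPM with TMM factors (edgeR 4.0.16, R 4.3.3); library totals were 38543457 to 47965130. Intervals and plots used Python 3.11.15 with matplotlib 3.10.9, pandas 2.3.3, numpy 2.4.6 and scipy 1.17.1. The steps were tested on simulated data.

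Genes named in the text were the 3 most frequent V genes and V-J pairs of each library with at least 20 IGH clonotypes, IGHV5-2, IGHV1-26, IGHV7-1, IGHV11-2 and IGHV12-3, the 3 largest clonotypes of each library, CDR3s found in at least 3 libraries, IGHD4-1, IGHD1-1, and lists of B-cell, recombination, constant and cell-type marker genes. Not every gene this rule took is printed. Members and lists were chosen with earlier results of these data known. Alternatives were weighting by reads, a clone count of at least 2, merging at 1 mismatch, the chain from V, in-frame clonotypes, ambiguous V hits and scaling by library size; 1 line per CDR3, a stricter V ambiguity rule and the V end of the genome annotation were chosen after seeing the data.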

Additional observations from a re-analysis of the deposited data

Results flagged for a closer look

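The number of IGH clonotypes moved in opposite directions in the 2 origins. In maternal cells all 3 IUT libraries had fewer IGH clonotypes than the uninjected library, with a difference of -2100 for the library nearest to it, whereas in recipient cells all 3 had more, by 27 at the least. The IGH share of all clonotypes was lower with IUT in both origins, at 24.5%, 21.9% and 3.99% against 47.9% in maternal and 12.2%, 4.14% and 20.9% against 36.5% in recipient cells. Clonotypes of all chains in recipient cells numbered 148 without IUT and 666, 5488 and 3064 with it. IGH reads were lower with IUT in both origins too. The 3 differences of an origin share 1 uninjected library, and with 1 library per group the difference between origins was not tested. The uninjected pool also held more pups, and the part of pool size in these numbers was not tested.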

How the results depend on the processing

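No paired analysis was possible within an origin because the results are single values per library and come from no test, and the treatments compared within an origin share no second replicate number. Maternal and recipient libraries of a treatment can come from the same pups, and pairing across origins was not examined. Of 568 values recomputed, 532 stayed within their interval and none changed the side on which uninjected and IUT libraries lay for the IGHV1 share, inserted bases, IGHM share or CDR3 length of clonotypes, although the Ighv1 share of gene counts over all Ighv genes did not divide them (54.6% and 54.9% without IUT, 11.4% to 77.8% with it). The IGHV5 and IGHV2 share alone overlapped with a clone count of at least 2 (uninjected 12.8% to 14.6%, IUT 14.3% to 45.0%). Weighting by reads moved the IGHV1 share to 52.3% in maternal uninjected, 7.15% in maternal DC control pIUT and 28.3% in recipient DC-depleted pIUT cells; the IGHV5 and IGHV2 share to 60.1% and 40.8% in the latter pair; the share without inserted bases to 39.9% in maternal DC control pIUT cells; IGHM to 83.8%, IGHJ1 to 23.1% and IGHJ2 to 30.3% in maternal uninjected cells; IGHJ3 from 14.3% to 60.1% in maternal DC control pIUT cells; and the in-frame share to 98.5%, 97.9%, 99.96% and 97.9% in maternal uninjected, maternal DC-depleted pIUT, recipient uninjected and recipient DC control pIUT cells. A clone count of at least 2 moved IGHV1 to 58.3% and 30.4% in maternal uninjected and recipient DC-depleted pIUT cells, and the in-frame share to 94.5% and 97.3% in maternal uninjected and recipient DC control pIUT cells. Taking 1 line per CDR3, chosen after seeing the data, gave an IGHV1 share of 57.5% in maternal uninjected cells and 7 clonotypes in maternal DC control mIUT cells. The V end of the genome annotation, also chosen after seeing the data, gave 79.4% and 75.9% without inserted bases in recipient DC control pIUT and DC-depleted pIUT cells. Scaling by library size gave summed B-cell genes of 6727, 280, 89.9 and 26.5 CPM in the maternal and 1212, 47.7, 214 and 324 CPM in the recipient libraries, and summed recombination genes of 32.5, 39.1 and 28.5 CPM in the maternal and 53.1, 256 and 61.7 CPM in the recipient IUT libraries. The cause of these changes was not tested. The 12, 7 and 22 clonotypes of the maternal IUT libraries limit every share given for them.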
